A study of Mus musculus with 6 samples.

Results

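The vacuolar ATPase and lysosomal genes of islets were described in 3 Ucn3 null mice and 3 wild-type littermates. All 6 were males aged 3 months, and each library is the RNA of 1 animal. Ucn3 encodes urocortin 3, a peptide that mature beta cells store and release with insulin. Members were chosen by gene symbol alone: every V1 and V0 subunit symbol beginning Atp6v1 or Atp6v0, Atp6ap1 and Atp6ap2, each cathepsin named Cts with a single letter, and Lamp1 and Lamp2. This gave 44 of the 21813 symbols in the table, made up of 13 V1 symbols, 9 V0 symbols, 1 V0 pseudogene, 2 accessory proteins, 17 cathepsins and 2 lysosome-associated membrane proteins (LAMPs). The labels call the islets mixed in cell type, give neither strain nor allele, and mention a cell sort in the extraction step, so the cells behind each library are known only as islets.

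The V-ATPase is a rotary proton pump. Its cytosolic V1 domain splits ATP and turns a rotor, and its membrane V0 domain passes protons into the lumen of lysosomes, endosomes and secretory granules. Acid activates cathepsins, the proteases of the lysosome, and in beta cells the acid lumen of the granule serves the enzymes that cut proinsulin. LAMPs are heavily glycosylated proteins that line the lysosome membrane. Many lysosomal genes carry a palindromic E-box in their promoters, read by TFEB and related factors.

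Ucn3 stood at 1.61, 1.63 and 1.80 RPKM in null libraries and at 136, 157 and 155 RPKM in wild-type libraries, so every library matched its label. RPKM is the number of reads on a RefSeq transcript per kilobase of its length, scaled to the depth of the library, so it can be compared between genes. The islet hormone genes Ins2 (184445 to 202333 RPKM in null and 202206 to 232411 RPKM in wild-type libraries) and Gcg (5836 to 10055 RPKM in null and 7946 to 8859 RPKM in wild-type libraries) were abundant throughout. Depth, estimated from how far apart the lowest RPKM values lie, was 46490000 to 51910000 reads in null libraries and 42610000 to 48480000 reads in wild-type libraries. Libraries differed widely in acinar markers, genes of the exocrine tissue around islets. Their mean log2(RPKM + 1) was 8.50, 7.80 and 6.49 in Ucn3 null replicates 1 to 3 and 6.74, 3.74 and 5.57 in wild type replicates 1 to 3. Markers of delta cells, which release somatostatin, were at lower levels in null libraries: they summed to 731 to 1150 RPKM in null and 1799 to 2465 RPKM in wild-type libraries, and in 5 of 7 tested markers every null library lay below every wild-type library, where 13.2% of all 12652 tested genes did. In 1 of the 7 every null library lay above, as it did in 3 of 11 markers of beta cells, where 1.9% of all tested genes did. The beta cell list was split. Of its 11 markers 6 had a negative log2 difference (null minus wild type), 1 was lower without overlap, and the median was -0.0055. For markers of ducts every null library lay below every wild-type library in 4 of 11, or 36.4%, beside 13.2% of all tested genes. None of these markers was at 0 in all libraries, and the part of these cells in the values below was not tested beyond the acinar covariate. In bulk RNA, fewer cells of a type and less RNA per cell cannot be told apart.

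The promoters below show the E-box in 5 members of differing abundance, among them Lamp1, the most abundant, beside Lamp2, an abundant member without it. The windows are RefSeq promoters of build GRCm38.p6, matched by symbol and read in the direction of the gene, from 140 bases before the start to 15 after it. The build of the deposited values is mm9, so no position is carried between them. The windows lie at chr8:13159021-13159175 (plus strand, Lamp1), chr7:142387813-142387967 (minus strand, Ctsd), chr8:105566050-105566204 (minus strand, Atp6v0d1), chr16:44139245-44139399 (minus strand, Atp6v1a), chr2:164833633-164833787 (plus strand, Ctsa, the start that holds the motif) and chrX:38456446-38456600 (minus strand, Lamp2, which holds none). Capitals mark CACGTG, or TCACGTGA where the longer form is present.
Lamp1: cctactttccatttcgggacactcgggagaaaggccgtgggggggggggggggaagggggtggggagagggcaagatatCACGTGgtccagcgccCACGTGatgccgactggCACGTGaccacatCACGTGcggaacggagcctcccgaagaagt
Ctsd: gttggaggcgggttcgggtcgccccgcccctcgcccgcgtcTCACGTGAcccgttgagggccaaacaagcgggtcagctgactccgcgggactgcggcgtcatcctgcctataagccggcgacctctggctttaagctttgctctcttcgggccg
Atp6v0d1: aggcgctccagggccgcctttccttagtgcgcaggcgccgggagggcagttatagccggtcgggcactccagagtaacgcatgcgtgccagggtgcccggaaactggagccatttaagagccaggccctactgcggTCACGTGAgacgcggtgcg
Atp6v1a: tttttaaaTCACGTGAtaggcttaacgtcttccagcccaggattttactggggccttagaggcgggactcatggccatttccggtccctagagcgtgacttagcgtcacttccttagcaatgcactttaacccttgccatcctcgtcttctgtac
Ctsa: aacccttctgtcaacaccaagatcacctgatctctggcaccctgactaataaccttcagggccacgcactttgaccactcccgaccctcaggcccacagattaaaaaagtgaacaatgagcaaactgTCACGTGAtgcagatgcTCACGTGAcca
Lamp2: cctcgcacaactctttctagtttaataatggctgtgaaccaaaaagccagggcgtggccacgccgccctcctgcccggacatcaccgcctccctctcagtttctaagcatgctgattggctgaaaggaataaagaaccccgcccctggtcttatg

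Both motifs are palindromes, so a match holds on both strands, and each TCACGTGA contains a CACGTG. Windows of 300 bases, from 250 before the start to 50 after it, were found for 33 of the 44 members. CACGTG was present for 9 of these 33 members, or 27.3%, against 8.09% of all 27025 genes with a window. Among those averaging at least 1 RPKM, it was present for 9 of 23 members, or 39.1%, against 11.97% of genes. TCACGTGA was present for 5 members, or 15.2%, against 1.12% of all genes. Among those averaging at least 1 RPKM, it was present for 21.7% of members against 2.34% of genes. The 5 are Atp6v0d1, Atp6v0e, Atp6v1a, Ctsa and Ctsd. Lamp1 held 4 copies of CACGTG, at 61, 45, 28 and 15 bases before its start by their first base, a number or more that was found in 8 of all 32851 windows. Atp6v0b held 2, and Ctsf and Ctsl 1 each. All 9 members with the motif averaged at least 1 RPKM, and none of the 10 matched members under that level held it. A match is a description of the letters and shows no binding.

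Of the 44 members, 31 averaged at least 1 RPKM and were tested for a difference between genotypes, and 13 averaged 0.840 RPKM or less. One of the 31 is the pseudogene Atp6v0c-ps2, whose RPKM was 1.03 times that of Atp6v0c in all 6 libraries. Their reads cannot be told apart, so the counts that follow cover the other 30. Of those, 11 averaged 50 RPKM or more, 14 lay between 10 and 50 RPKM, and 5 were under 10 RPKM. Lamp1 had the highest level of all members and stood above 99.3% of all symbols in the table.

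**Figure D1:**
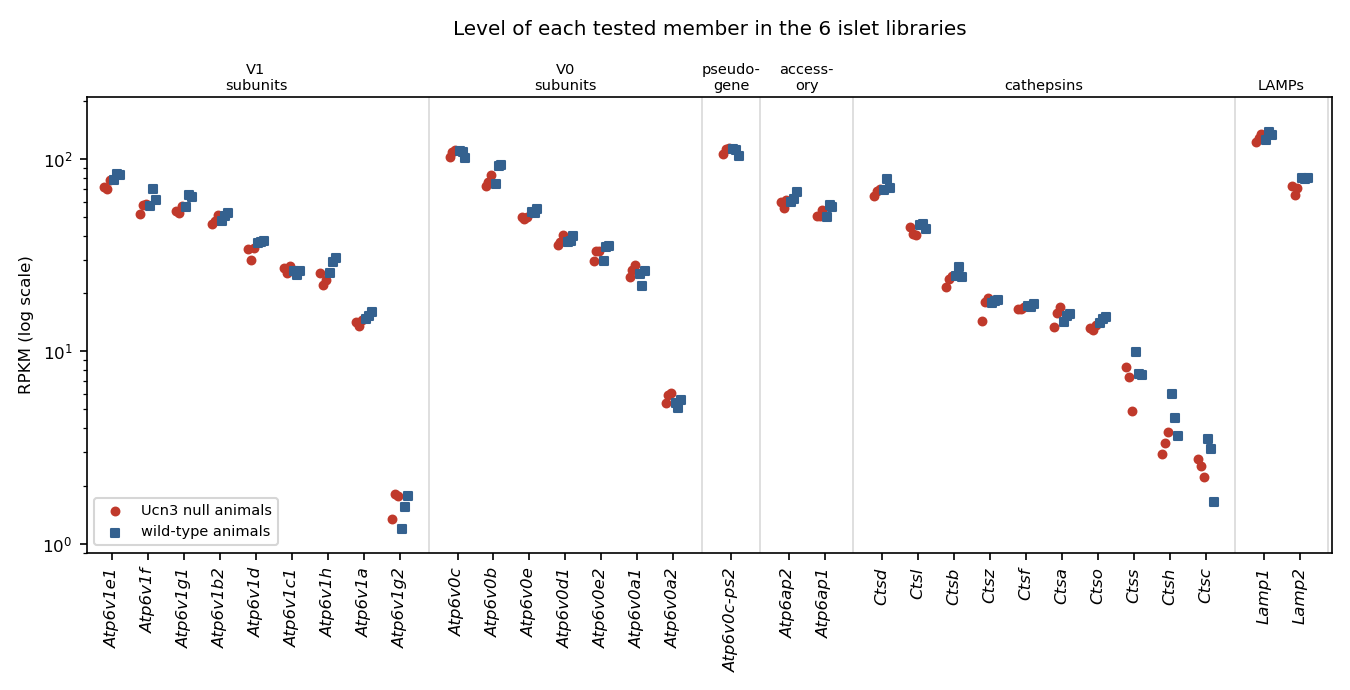
RPKM on a log axis for each of the 31 tested members, grouped by role and ordered by level within a group, with 1 point per animal and Ucn3 null animals left of wild-type animals. Lamp1 is highest at 122 to 138 RPKM and Atp6v1g2 lowest at 1.19 to 1.81 RPKM.

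In the V1 domain, subunit A, which holds the catalytic site, had a lower level than most other V1 subunits of the islet pump. Atp6v1a had 14.1, 13.5 and 14.5 RPKM in null libraries and 14.7, 15.3 and 15.9 RPKM in wild-type libraries. Atp6v1b2, the B subunit that alternates with A in the ring, had 45.7, 47.8 and 51.3 RPKM in null libraries and 47.6, 50.7 and 52.3 RPKM in wild-type libraries. The level of Atp6v1b2 was 3.24 to 3.54 times that of Atp6v1a in null libraries and 3.24 to 3.32 times in wild-type libraries, although the pump carries both subunits in equal number. The stalk subunits E and G were the most abundant V1 genes together with subunit F. Atp6v1e1 had 71.5, 70.2 and 78.0 RPKM in null libraries and 78.1, 83.9 and 82.2 RPKM in wild-type libraries, so all null libraries lay below all wild-type libraries, by a narrow margin. Atp6v1g1 had 53.4, 52.5 and 57.2 RPKM in null libraries and 56.2, 64.9 and 63.1 RPKM in wild-type libraries, and the groups overlapped. Atp6v1f, part of the rotor, averaged 56.0 ± 3.69 RPKM in null and 62.6 ± 6.49 RPKM in wild-type islets (SD, n = 3 each).

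The other V1 members were at intermediate levels. Atp6v1d, the rotor shaft, had 34.0, 30.0 and 34.3 RPKM in null libraries and 36.7, 36.9 and 37.5 RPKM in wild-type libraries, without overlap. Atp6v1h, which regulates the coupling of V1 to V0, had 25.6, 22.2 and 23.6 RPKM in null libraries and 25.4, 29.1 and 30.5 RPKM in wild-type libraries. Ucn3 null replicate 1 lay just above wild type replicate 1, so its groups overlapped. Atp6v1c1, the C subunit at the junction of the domains, averaged 26.8 ± 1.04 RPKM in null and 25.8 ± 0.83 RPKM in wild-type islets (SD, n = 3 each). It and Atp6v1g2 were the V1 members with a positive difference.

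In the V0 domain, the proteolipids of the proton-carrying ring led. Atp6v0c, the main ring subunit, had 102.9, 109 and 111 RPKM in null libraries and 109, 109 and 101 RPKM in wild-type libraries, and the groups overlapped. Atp6v0b, the other ring proteolipid measured, averaged 77.1 ± 5.0 RPKM in null and 86.1 ± 10.3 RPKM in wild-type islets (SD, n = 3 each). Atp6v0d1, the stalk that joins rotor and ring, had 35.7, 37.1 and 40.2 RPKM in null libraries and 37.1, 37.7 and 39.9 RPKM in wild-type libraries. Atp6v0a1, the largest V0 subunit, which forms the path of the protons with the ring, had 24.4, 26.6 and 28.0 RPKM in null libraries and 25.3, 21.8 and 26.2 RPKM in wild-type libraries. Both overlapped between the genotypes. Atp6v0e, a small membrane subunit, averaged 49.6 ± 0.88 RPKM in null and 53.4 ± 1.44 RPKM in wild-type islets (SD, n = 3 each), and was the V0 member whose groups did not overlap. The accessory proteins also overlapped. Atp6ap1, which helps assemble V0, had 50.4, 50.3 and 54.5 RPKM in null libraries and 50.1, 57.4 and 56.5 RPKM in wild-type libraries. Atp6ap2, also known as the prorenin receptor, had 59.8, 55.6 and 61.5 RPKM in null libraries and 60.0, 62.0 and 67.4 RPKM in wild-type libraries.

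Of 7 subunit families with several genes, 5 drew at least 96.7% of their summed RPKM from 1 gene in every library. These shares are ratios within a library and do not depend on how libraries are scaled. Atp6v1b2 made 99.8% to 99.9% of B subunit RPKM, with the remainder from Atp6v1b1, the form known from acid-secreting kidney cells. Atp6v1e1 made at least 99.9% of E and Atp6v0d1 at least 99.8% of d, against traces of the testis form Atp6v1e2 and of Atp6v0d2, known from osteoclasts. Atp6v1c1 made 97.0% to 98.9% of C and Atp6v1g1 96.7% to 97.9% of G. Atp6v1g2, the neuronal G form, made 2.94% ± 0.44 of G in null and 2.38% ± 0.33 in wild-type islets (SD, n = 3 each).

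The a and e families were mixed. Atp6v0a1 made 74.4% ± 0.65 of a subunit RPKM in null and 73.7% ± 1.76 in wild-type islets (SD, n = 3 each), and Atp6v0a2, known from the Golgi apparatus, made 16.4% ± 0.28 and 16.2% ± 0.41 in null and wild-type islets. Tcirg1, which encodes the a3 subunit under another name and is no member, made 7.72% ± 0.92 in null and 8.34% ± 1.04 in wild-type islets. Its protein is known from osteoclasts and from the insulin granule. Atp6v0a4, the other kidney form, made 1.51% ± 0.13 and 1.74% ± 0.38 in null and wild-type islets. In the e family Atp6v0e made 60.8% ± 1.93 in null and 61.7% ± 2.21 in wild-type islets, the remainder being Atp6v0e2. All shares overlapped between the genotypes; over the 17 shares the exact two-sided permutation p ran from 0.2 to 1, where 3 animals against 3 cannot go below 0.1, and the smallest adjusted p was 0.907.

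**Figure D2:**
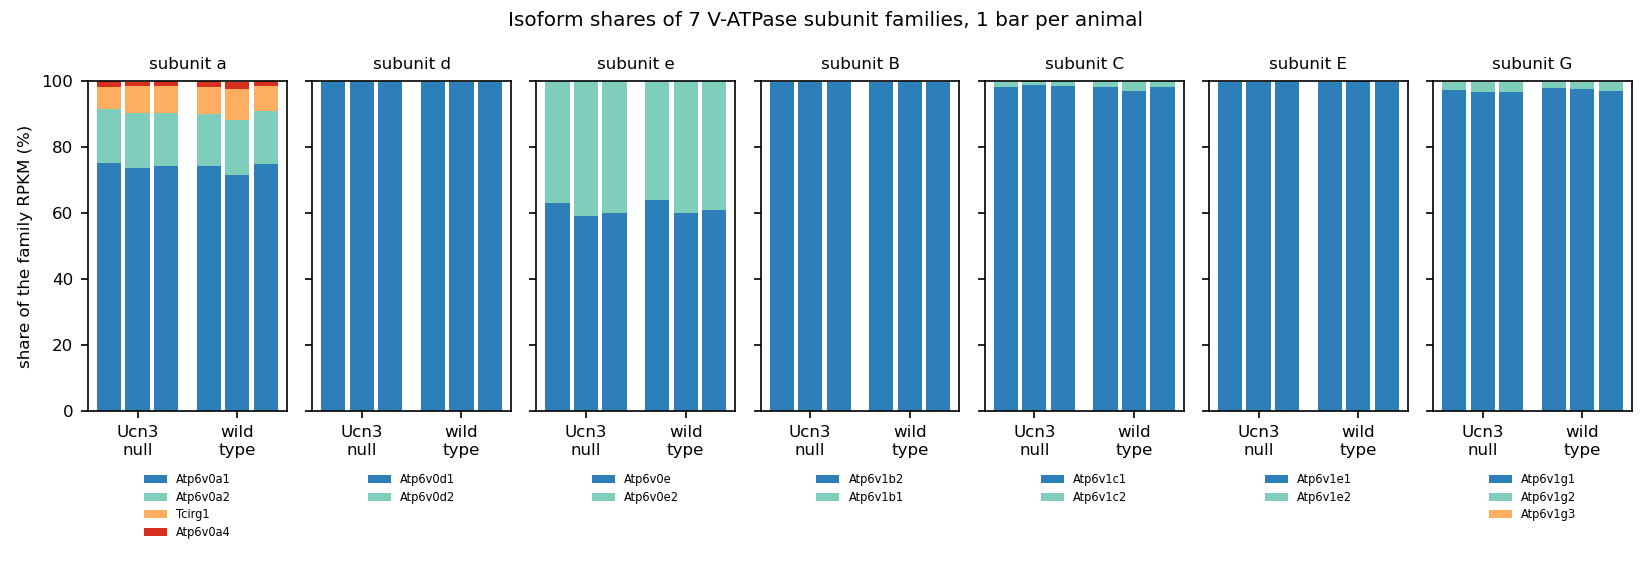
Share of each gene in the summed RPKM of its subunit family, in percent, with 1 stacked bar per animal and Ucn3 null animals left of wild-type animals. Atp6v0a1 makes 71.8% to 75.1% of the a family and Atp6v0e 59.3% to 64.2% of the e family, while 1 gene fills nearly the whole bar in the other 5 families.

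Among cathepsins, the aspartic protease Ctsd was highest, with 64.2, 68.2 and 69.9 RPKM in null libraries and 69.2, 78.5 and 70.8 RPKM in wild-type libraries. The cysteine protease Ctsl followed with 44.6, 40.6 and 40.5 RPKM in null libraries and 45.1, 45.7 and 43.1 RPKM in wild-type libraries. Ctsb, a cysteine protease that also trims peptides from their end, had 21.6, 23.7 and 24.5 RPKM in null libraries and 24.6, 27.4 and 24.4 RPKM in wild-type libraries. All 3 genes overlapped between the genotypes. Ctsz, a carboxypeptidase, had 14.4, 18.0 and 19.0 RPKM in null libraries and 17.7, 18.3 and 18.5 RPKM in wild-type libraries, with Ucn3 null replicate 1 as the low value. Ctso, a less studied cysteine protease, had 13.3, 12.9 and 13.8 RPKM in null libraries and 14.005, 14.8 and 15.2 RPKM in wild-type libraries, without overlap. Ctsf, another cysteine protease, and Ctsa, a carboxypeptidase that also protects other lysosomal enzymes, averaged 16.7 ± 0.23 and 15.4 ± 1.78 RPKM in null islets and 17.2 ± 0.31 and 15.1 ± 0.77 RPKM in wild-type islets (SD, n = 3 each).

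The cathepsins best known from immune cells were lower in level and more variable. Ctss, which trims the invariant chain in antigen-presenting cells, had 8.32, 7.40 and 4.90 RPKM in null libraries and 9.89, 7.65 and 7.57 RPKM in wild-type libraries. Ctsh, an aminopeptidase, had 2.93, 3.36 and 3.83 RPKM in null libraries and 6.02, 4.505 and 3.63 RPKM in wild-type libraries. Ctsc, which activates granule proteases of leukocytes, had 2.75, 2.55 and 2.21 RPKM in null libraries and 3.49, 3.12 and 1.66 RPKM in wild-type libraries. Wild type replicate 1 was highest for all 3, and the groups overlapped. The summed RPKM of 17 tested macrophage and dendritic markers, of which 0 of 22 in the table were at 0 throughout, was 162, 233 and 197 in Ucn3 null replicates 1 to 3 and 309, 227 and 175 in wild type replicates 1 to 3. It was highest in wild type replicate 1 too. The lowest sum was in Ucn3 null replicate 1, where Ctsh was also lowest. Ctss was lowest in Ucn3 null replicate 3 and Ctsc in wild type replicate 3. The part of these cells in the values of Ctss, Ctsh and Ctsc was not tested.

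The other cathepsins averaged under 1 RPKM. Ctse, an aspartic protease of gastric epithelium and immune cells, had 0.509, 0.451 and 0.619 RPKM in null libraries and 1.56, 0.764 and 0.749 RPKM in wild-type libraries. This is about 46.1 to 61.1 reads per null library and 77.2 to 141 reads per wild-type library. On the deposited scale the groups did not overlap. The gene averaged under 1 RPKM and was tested only in the fit without a filter, where no member passed a limma adjusted p of 0.05. Ctsk, the collagen-cutting protease of osteoclasts, averaged 0.894 ± 0.387 RPKM in null and 0.785 ± 0.220 RPKM in wild-type islets, and Ctsw, known from cytotoxic lymphocytes, 0.428 ± 0.174 and 0.502 ± 0.121 RPKM in null and wild-type islets (SD, n = 3 each). The rodent cathepsins of the placenta gave single reads. Ctsj, Ctsm and Ctsr were above 0 in Ucn3 null replicate 1 alone, at 0.0152, 0.0160 and 0.0145 RPKM or about 1.002, 1.59 and 1.06 reads, and were at 0 in the other 5 libraries. Ctsq was above 0 in Ucn3 null replicate 1 and wild type replicate 3. A count of 0 allows up to 3 reads, which is 0.0303 to 0.0554 RPKM for Ctsj, Ctsm, Ctsr and Ctsq over the 6 libraries, for counting error only. Atp6v1b1, Atp6v1e2, Atp6v0d2 and Atp6v1g3 likewise had under 10 reads in each library.

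The LAMPs were the pair with the highest mean level of any subgroup. Lamp1 had 122, 129 and 135 RPKM in null libraries and 126, 138 and 133 RPKM in wild-type libraries, and the groups overlapped. Lamp2, which also serves chaperone-mediated autophagy through 1 of its splice forms, had 72.7, 64.7 and 70.3 RPKM in null libraries and 79.4, 78.4 and 79.3 RPKM in wild-type libraries. On the deposited scale all null libraries of Lamp2 lay below the wild-type libraries, whose SD was 0.515 RPKM. The values are those of RefSeq transcript NM_001017959. The second listed transcript, NM_010685, had 29.0, 26.1 and 27.6 RPKM in null libraries and 32.3, 32.2 and 31.9 RPKM in wild-type libraries. Its groups did not overlap either. Both transcripts are of the same gene, and the second stayed at 0.393 to 0.410 of the first, so this is no separate observation. The ratio of the first transcript to the second was 2.51 ± 0.03 in null and 2.46 ± 0.02 in wild-type islets (SD, n = 3 each; exact two-sided permutation p = 0.2). Lamp2 was the only 1 of the 4 members with several listed transcripts whose transcripts were not proportional across libraries within 0.1%.

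The comparison of genotypes asked whether any member differed between null and wild-type islets. None of the 31 tested members passed a limma adjusted p of 0.05, where 0.0158% of all 12652 tested genes did, namely Ucn3 and the pseudogene Marcksl1-ps4. The smallest limma adjusted p of a member was 0.50, for Atp6v1h. At an unadjusted p under 0.05 limma counted 3 of 30 members, Atp6v1h, Lamp2 and Ctsh, all lower in null islets, which is 10% beside 9.36% of all tested genes. Limma-voom on estimated reads also passed 0 members and counted 6, or 20%, beside 12.04% of all genes. The limma count was 1 of 30, or 3.33%, with median-ratio scaling, with equalised totals and with the acinar covariate. The shares of all tested genes were then 9.08%, 6.92% and 3.79%. The count was 0 without Ucn3 null replicate 2 or without wild type replicate 2, beside 3.45% and 4.51% of all tested genes. The log2 difference, null minus wild type on log2(RPKM + 1), was -0.24 for Atp6v1h (95% interval -0.45 to -0.03), -0.19 for Lamp2 (-0.36 to -0.01; limma adjusted p = 0.52) and -0.37 for Ctsh (-0.73 to -0.01; limma adjusted p = 0.53). The Ctsh difference was -0.21 without wild type replicate 1, and with totals equalised without acinar markers that of Lamp2 was -0.10 and that of Atp6v1h -0.16. Next by p were Atp6v1d at -0.17, Atp6v1g1 at -0.17, Ctso at -0.13, Atp6v1e1 at -0.15 and Atp6v1a at -0.11, with limma adjusted p from 0.53 to 0.63. The interval of Lamp1, the most abundant member, ran from -0.23 to 0.15. For 27 of the 30 members it lay within 0.5 log2 units of 0 on both sides; the exceptions were Ctss, Ctsh and Ctsc, with Ctss from -0.68 to 0.14. The Ctss difference was -0.27, but -0.073 without Ucn3 null replicate 3, -0.15 without wild type replicate 1, -0.40 without Ucn3 null replicate 1 and -0.66 with the acinar covariate. A p that misses the threshold does not show that a member was equal in both genotypes.

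**Figure D3:**
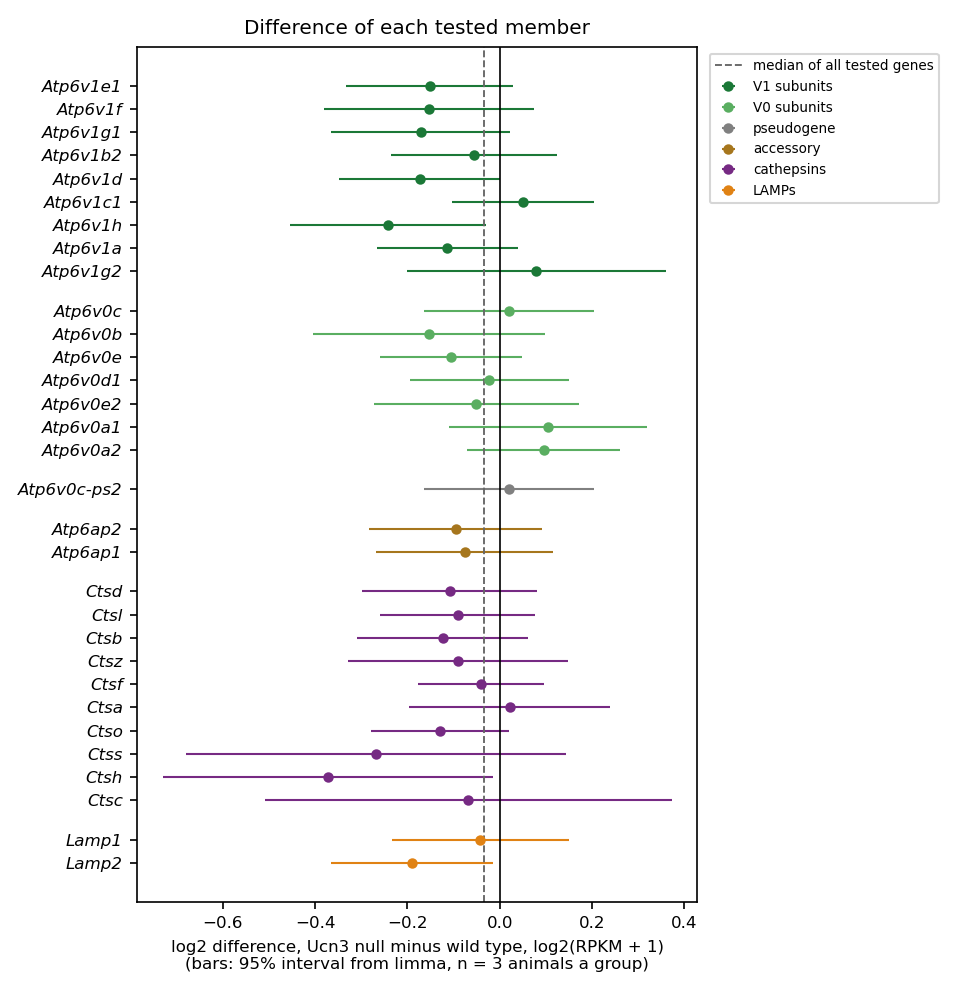
Log2 difference of each tested member, Ucn3 null minus wild type, with its 95% interval from limma and the median of all tested genes as a dashed line. Most points lie left of 0, none passed an adjusted p of 0.05, and the 3 intervals that end below 0 are those of Atp6v1h, Lamp2 and Ctsh.

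By direction, 24 of the 30 members were negative on the scale as deposited, or 80%, against 61.7% of all tested genes. With median-ratio scaling 21 members, or 70%, were negative, against 47.9% of all tested genes. With totals equalised without acinar markers it was 18 members, or 60%, against 36.9% of all tested genes. With the acinar level as a covariate it was 14 members, or 46.7%, against 56.0% of all tested genes. With limma-voom on estimated reads it was 27 members, or 90%, against 75.2% of all genes in that fit. The median difference was -0.15 over 9 V1 members, -0.050 over 9 V0 and accessory members, -0.10 over 10 cathepsins and -0.12 over the 2 LAMPs, beside -0.034 over all tested genes. The V0 and accessory median was above 0 with equalised totals and with the acinar covariate, and without Ucn3 null replicate 1 it was 0.0088. In 6 of the 30 members every null library lay below every wild-type library, or 20%, where 13.2% of all tested genes did. These were Atp6v1a, Atp6v1d, Atp6v1e1, Atp6v0e, Ctso and Lamp2. In 0 members did every null library lie above every wild-type library, against 1.9% of all tested genes. Both counts depended on the scaling. Atp6v1e1 was the only member lower without overlap with median-ratio scaling and with equalised totals, or 3.33% against 8.13% and 5.06% of all tested genes. With median-ratio scaling 3 members, Atp6v0a1, Atp6v0a2 and Atp6v1c1, were higher without overlap, or 10%, against 7.94% of all tested genes. With equalised totals these were 4, Atp6v0a1, Atp6v0a2, Atp6v0c and Lamp1, or 13.3%, against 8.52% of all tested genes. Ucn3 null replicate 1, with the highest acinar level, was the lowest of the 6 libraries for 12 of the 30 members, or 40%, and for 34.7% of all tested genes. Ucn3 null replicate 2 was lowest for 9 members, or 30%, and for 20.8% of all tested genes. Wild type replicate 2, with the lowest acinar level, was lowest for 3 members, or 10%, and for 26.3% of all tested genes. The part of acinar RNA in these differences was not tested beyond the covariate.

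Summed levels were compared by library. The V1 subunits summed to 331 ± 14.03 RPKM in null and 364 ± 18.3 RPKM in wild-type islets, the V0 subunits to 337 ± 15.7 and 348 ± 11.6 RPKM in null and wild-type islets, and the cathepsins to 209.8 ± 5.55 and 226 ± 7.03 RPKM in null and wild-type islets (SD, n = 3 each). By library the cathepsin sum was 204, 211 and 215 RPKM in null libraries and 224, 234 and 220 RPKM in wild-type libraries, without overlap. With equalised totals it was 219, 214 and 216 RPKM in null libraries and 226, 219 and 214 RPKM in wild-type libraries, and the groups overlapped, as they did with median-ratio scaling. The ratio of the V1 sum to the V0 sum, which does not depend on scaling, was 1.013, 0.954 and 0.987 in null libraries and 1.03, 1.07 and 1.04 in wild-type libraries. This ratio was chosen after the sums were seen and is given with no test.

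**Figure D4:**
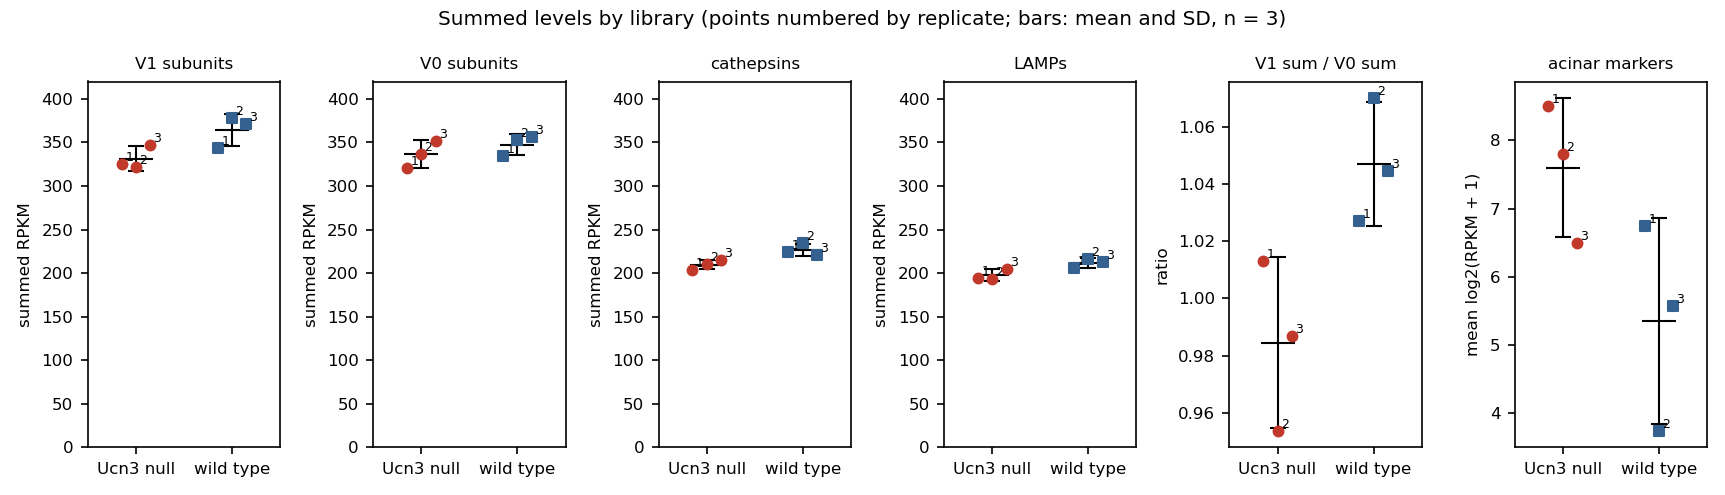
Summed RPKM of V1 subunits, V0 subunits, cathepsins and LAMPs, the ratio of the V1 sum to the V0 sum and the mean log2 acinar level. Ucn3 null is left of wild type, with 1 point per animal numbered by replicate and bars for the mean and SD. The V1 to V0 ratio lies between 0.954 and 1.013 in null libraries and between 1.03 and 1.07 in wild-type libraries, while the acinar level overlaps between the groups.

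Members averaging at least 10 RPKM varied little between animals. The median coefficient of variation of the 25 members averaging at least 10 RPKM was 5.71% among null and 4.49% among wild-type animals, against 6.94% and 7.29% among null and wild-type animals for all 4192 genes at that level. The lowest was 0.652%, for Lamp2 among wild-type animals. The 4192 genes share the bound of 10 RPKM but were not matched to the members on level. Of the 5 tested members under 10 RPKM, 4 varied more. Among wild-type animals the coefficient was 35.1% for Ctsc, 25.6% for Ctsh, 19.6% for Atp6v1g2 and 15.8% for Ctss, but 5.26% for Atp6v0a2.

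Genes that work with the members were read from lists in the same fit, and in each list 0 genes passed in limma. Beside the counts below, 61.7% of all tested genes were negative and 9.36% had an unadjusted p under 0.05 in limma. Overlap of the groups in these lists was read on the deposited scale only. The share of all tested genes lower without overlap was 13.2% on that scale, 8.13% with median-ratio scaling and 5.06% with equalised totals. Of 40 tested lysosomal hydrolases and activators outside the cathepsins, 24, or 60%, were negative, with a median difference of -0.015, and 0 had an unadjusted p under 0.05. Acp2, a lysosomal acid phosphatase, had the smallest p and averaged 6.88 ± 0.16 RPKM in null and 7.54 ± 0.08 RPKM in wild-type islets (SD, n = 3 each). Of 22 tested lysosomal membrane proteins, 15 were positive and 7, or 31.8%, negative, with a median of 0.019. In this list 1 gene, Laptm4a, or 4.55%, had an unadjusted p under 0.05. Without overlap 4 of the 22 were lower, or 18.2% against 13.2% of all tested genes, and 1 was higher, or 4.55% against 1.9%. Of 16 genes that sort enzymes to lysosomes 9 were positive, with a median of 0.0091. Vps35, the core of the retromer that returns sorting receptors, averaged 33.0 ± 2.35 RPKM in null and 38.2 ± 0.64 RPKM in wild-type islets, and M6pr, a mannose 6-phosphate receptor, 29.9 ± 0.71 and 33.2 ± 0.88 RPKM in null and wild-type islets (SD, n = 3 each). By limma the adjusted p was 0.49 for Vps35 and 0.53 for M6pr. In both the groups did not overlap, and Nagpa, which uncovers the mannose 6-phosphate tag, was higher in every null library, at 2.91 to 3.09 RPKM in null and 2.66 to 2.70 RPKM in wild-type libraries. In the list 2 of 16 genes were lower without overlap, or 12.5% against 13.2% of all tested genes, and 1 of 16 was higher, or 6.25% against 1.9%.

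Both tested cathepsin inhibitors were negative. Cst3, the secreted inhibitor cystatin C, had 222, 216 and 238 RPKM in null libraries and 266, 276 and 265 RPKM in wild-type libraries, without overlap (log2 difference -0.25, limma adjusted p = 0.49). Cstb, its cytosolic relative, averaged 20.6 ± 1.30 RPKM in null and 23.9 ± 2.66 RPKM in wild-type islets (SD, n = 3 each). Of 13 tested genes for assembly and regulation of the pump 9 were negative, with a median of -0.049, and Vma21, an assembly factor of V0, averaged 5.78 ± 0.26 RPKM in null and 6.64 ± 0.19 RPKM in wild-type islets (SD, n = 3 each; limma adjusted p = 0.49). Of 15 regulators of lysosomal genes and of mTOR at the lysosome 9 were negative, with a median of -0.013. Of 26 autophagy genes 16 were negative, with a median of -0.026, and the 3 with an unadjusted p under 0.05 in limma were Gabarapl2, Atg10 and Gabarap, all lower in null islets, with limma adjusted p from 0.49 to 0.53. This is 11.54% of the list beside 9.36% of all tested genes, of which 185 were higher and 999 lower. Gabarap and Gabarapl2, which tether cargo to the autophagosome membrane, averaged 99.4 ± 5.31 and 42.5 ± 0.86 RPKM in null islets and 117 ± 10.9 and 49.6 ± 2.99 RPKM in wild-type islets (SD, n = 3 each).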

How the data were processed

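Islet RNA of 3 Ucn3 null and 3 wild-type animals was sequenced from TruSeq libraries, per the labels' protocols. The deposited table gives RPKM made by the authors per RefSeq transcript; the submitters' processing notes name STAR, bedtools, DESeq and mm9, without roles. How shared reads were counted, and strand, are not given in the sources used here. Of 28129 table lines, 117 had no values. A symbol with several transcripts was represented by the one of highest mean RPKM, and genes averaging at least 1 RPKM were tested with limma 3.58.1 (R 4.3.3) on log2(RPKM + 1), genotype as the only term, eBayes with a mean trend, Benjamini-Hochberg over 12652 genes. Such differences understate changes of low genes. The fit was also run on values simulated from its own gene means and spreads with known changes added. Those values held no library-wide shift and no acinar difference, so that run does not bear on the scaling. Replicates were numbered in accession order. Read numbers are estimates from RPKM steps and GENCODE M21 lengths, matched for 97.5% of transcripts; 77.5% to 78.8% of low values were whole within 0.1 read. Members and lists were chosen with earlier results of these data known. The named genes were 14 members fixed by role, the 8 members with the smallest p, all others by level, Tcirg1, and up to 3 genes of smallest p per list. A further 8 lists held markers of other cell types; 0 of their members passed, and their median log2 differences (null minus wild type) were 2.42 for acinar, -0.19 for macrophage and dendritic, -0.75 for delta, -0.0055 for beta, -0.032 for alpha, -0.33 for ductal, 0.049 for endothelial and 0.034 for stellate and fibroblast markers. Python 3.11.15 and matplotlib 3.10.9 were used.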

Additional observations from a re-analysis of the deposited data

How the results depend on the processing

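No member passed an adjusted p of 0.05 under any of the 15 alternatives; the smallest adjusted p of a member over them was 0.29, for Atp6v1h without wild type replicate 1. The number of genes past the threshold over the whole table was 2, but 4 without a filter, 1 with a filter of 5 RPKM, 1 with the acinar covariate, 5 with limma-voom on estimated reads, and 1 to 5 with 1 library left out (5 when Ucn3 null replicate 1 was dropped, 1 when it was Ucn3 null replicate 2). The LAMP median was -0.068 with median-ratio factors, -0.028 with totals equalised without acinar markers, -0.068 with the acinar covariate and -0.17 with limma-voom. The V0 and accessory median was 0.035 with equalised totals and 0.053 with the acinar covariate, and the V1 median -0.033 with that covariate. The V1 median (-0.15 as deposited) was -0.065 with equalised totals. The cathepsin median (-0.099 as deposited) was -0.053 with median-ratio factors, -0.014 with equalised totals, -0.056 with the acinar covariate and -0.16 with limma-voom. The V0 and accessory median (-0.050 as deposited) was -0.0040 with median-ratio factors and -0.11 with limma-voom. With 1 library left out the medians ran from -0.19 to -0.11 (V1), -0.11 to 0.0088 (V0 and accessory), -0.13 to -0.073 (cathepsins) and -0.14 to -0.093 (LAMPs).

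Small differences changed sign. With median-ratio factors Atp6v0d1 was at 0.025 and Lamp1 at 0.0061. With equalised totals Atp6v1b2 was at 0.031, Atp6v0d1 at 0.064, Atp6ap1 at 0.011 and Lamp1 at 0.046. With the acinar covariate Atp6v1b2 was at 0.039, Atp6v0d1 at 0.040, Atp6ap1 at 0.059, Ctsb at 0.016, Ctsd at 0.027, Ctsz at 0.048 and Lamp1 at 0.069. With limma-voom Atp6v0c was at -0.032. With 1 library left out Atp6v0d1 ran from -0.068 to 0.015, Ctsz from -0.17 to 0.022 and Atp6v0c from -0.017 to 0.052. The median of all genes moved from -0.034 as deposited to 0.0054 with median-ratio factors and 0.039 with equalised totals. It was -0.020 with the acinar covariate and -0.095 with limma-voom, so the limma-voom medians of the members stand beside a lower median of all genes. Median-ratio factors bring this median near 0 by construction. Equalised totals leave out the acinar markers but keep the insulin genes. The cause of the shift on the deposited scale was not tested. No paired analysis was possible because no label ties a null animal to a wild-type animal. With 3 animals a group the median standard error of a member's difference was 0.081, beside a median difference of -0.093.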
